A study of Mus musculus with 6 samples.

Results

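The 8 genes described here encode complement components and complement regulators that fibroblasts make: C1ra, C1s1, C4b, C3, Cfb, Serping1, Cd55 and Cd59a. They were taken by name from the 15711 genes of the deposited table, and all 8 had a row there. The libraries were bulk RNA from cultured mouse tendon stem/progenitor cells, fibroblast-like cells that are grown out of tendon and can form several connective tissue cell types. All 6 libraries carry a Cre driven by the type I collagen promoter together with a YFP reporter, and although the digit that follows Col1 alpha in the genotype changes from sample to sample, the sorted cells are labelled Col1a1+ throughout. The cells were sorted by flow cytometry into Col1a1+ Vldlr+ cells (3 libraries, called labelled-positive here) and Col1a1+ Vldlr- cells (3 libraries, called labelled-negative), Vldlr being the receptor for very low density lipoprotein, and both were then kept in medium with 20% fetal bovine serum. The series set out to learn what the Vldlr+ cells do in tendon regeneration. The sources used here give no strain, age or sex of the mice. The labels also do not say whether the libraries of a group came from separate animals or cultures, so the p-values below reflect the spread among these particular samples, and that spread may be technical.

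Complement is a cascade of blood and tissue proteins that tags particles and cell surfaces for removal and can open pores in membranes. In the classical route, C1q recognises a target and activates the proteases C1r and C1s, which cut C4 and C2 into an enzyme that cuts C3. The alternative route uses factor B for the same cut of C3 and amplifies the tag, and host cells are protected by a plasma inhibitor of C1r and C1s and by membrane proteins that take the enzymes apart or block the pore. Liver supplies most of these proteins to blood, while fibroblasts are a known local source of several of them.

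The deposited values were taken to be RPKM, reads scaled to exon length and library size. Levels of different genes can be compared only roughly, since the length is that of all annotated exons merged, whether or not they are used. Reads worked out from the deposited values numbered 17660241 to 17719560 per labelled-positive library and 17280540 to 17348846 per labelled-negative library. Labelled-positive replicate 1 stood apart from replicates 2 and 3 of its group, with a chi-square per gene of 14.7 and 12.6, against 2.35 between those replicates and 2.51 to 5.24 among the labelled-negative libraries. Vldlr itself was listed at 4.13 ± 0.532 RPKM in labelled-positive and 0.796 ± 0.285 RPKM in labelled-negative libraries (SD, n = 3 each), but its 3 labelled-negative values did not equal whole reads unless 5 RPKM was added to each. The labelled-positive libraries, at 4.73, 3.97 and 3.70 RPKM, would lie below the labelled-negative ones, at 5.96, 5.96 and 5.47 RPKM, with 5 RPKM added to the labelled-negative values, so no direction was drawn from Vldlr. Fibroblast and tendon markers were present in all libraries, with Col1a1 at 3027 ± 119 RPKM in labelled-positive and 1789 ± 86.2 RPKM in labelled-negative libraries and Fmod at 3152 ± 112.5 and 287.6 ± 8.28 RPKM in the same order of groups. Of the 8 fibroblast markers, 6 rose, among them Col1a1 and Col1a2, and 2, Col3a1 and Pdgfra, fell. Of the 7 tendon markers, 5 rose, among them Fmod and Comp, 1 fell and 1 was not called. The one that fell was Tnmd, 3.95-fold lower at 6.88 ± 0.803 RPKM in labelled-positive and 27.2 ± 2.34 RPKM in labelled-negative libraries. Beside these counts, limma called 29.7% of all genes tested higher and 26.1% lower. In bulk samples, fewer cells of a type and less RNA per cell cannot be told apart.

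Between the groups, these complement genes moved in both directions. The membrane regulator Cd55 was 4.81-fold lower in labelled-positive libraries, and the C1 inhibitor gene Serping1 was 2.18-fold higher. Cd59a and C3 were also higher, by 1.84-fold and 1.58-fold, and C4b, Cfb and C1s1 were lower, by 1.76-fold, 1.81-fold and 1.30-fold, each as a ratio of mean RPKM. C1ra was not called. Of the 8 genes, 3 were called higher and 4 lower by limma at an adjusted p under 0.05, where 29.7% of the 12116 genes tested were called higher and 26.1% lower, 55.9% in all. The libraries of the groups did not overlap for 7 of the 8, and for 62.9% of all genes tested. Cfb reached the filter of 1 RPKM in the labelled-negative libraries only, which favours a lower value for it, so these counts are a description. The median log2 fold change of log2(RPKM + 1), a scale that understates changes of low genes, was -0.17 for the 8 genes and 0.02 for all genes tested.

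**Figure D1:**
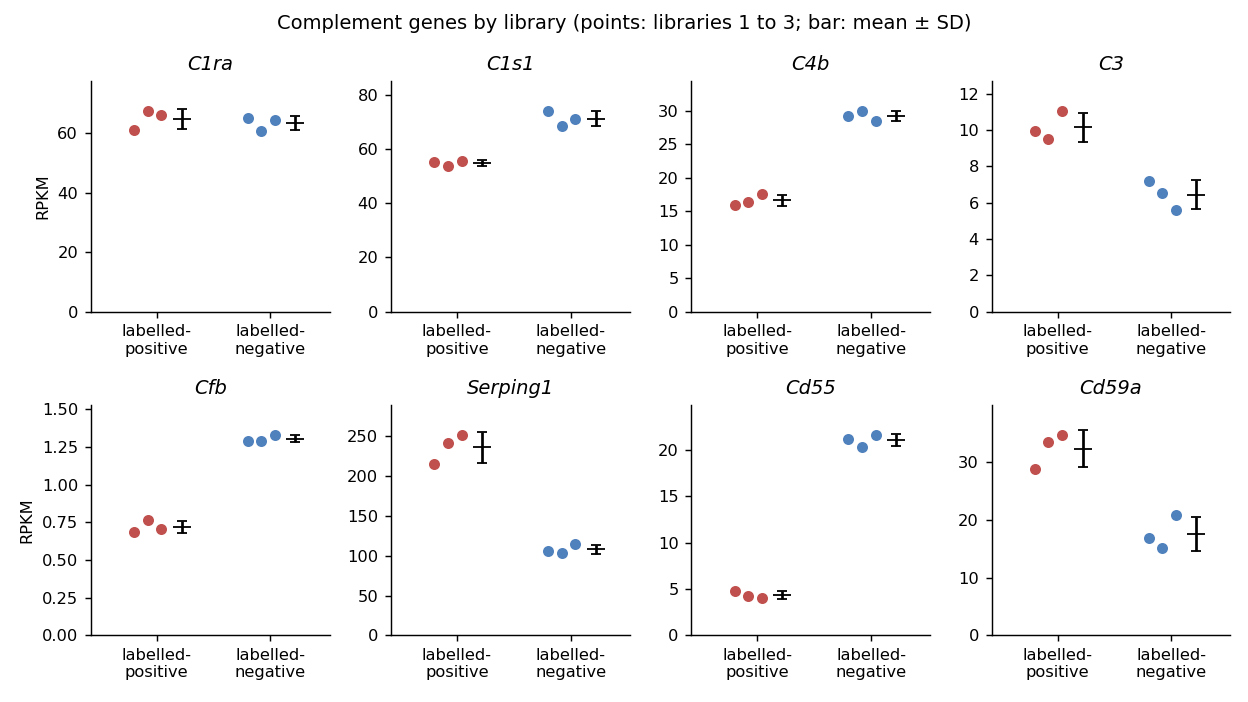
RPKM of each of the 8 complement genes (vertical axes start at 0 and differ between panels) in the 3 labelled-positive libraries, left in each panel, and the 3 labelled-negative libraries, right; points are libraries and bars give the mean and SD. The groups overlap for C1ra alone: Serping1, Cd59a and C3 lie higher in labelled-positive libraries, and Cd55, C4b, Cfb and C1s1 lower.

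Serping1 was the most abundant of the 8 genes in both groups, with a mean above that of 99.1% of all genes of the table in labelled-positive and 98.2% in labelled-negative libraries. In labelled-positive libraries the order of mean RPKM then ran C1ra, C1s1, Cd59a, C4b, C3, Cd55 and Cfb, and the libraries of no pair of neighbours overlapped. In labelled-negative libraries it ran C1s1, C1ra, C4b, Cd55, Cd59a, C3 and Cfb, and only Cd55 and Cd59a overlapped. Cd55 thus had a mean above 52.9% of all genes in labelled-positive and above 86.5% in labelled-negative libraries, while Cfb stood at 21.9% and 28.1% in the same order of groups.

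C1ra and C1s1 encode the proteases that form the working part of the first complement complex. They are neighbours on mouse chromosome 6 and are read in opposite directions, C1ra from 124512405 to 124523443 on the plus strand and C1s1 from 124530345 to 124542359 on the minus strand (GRCm38). C1ra was at 61.1, 67.5 and 66.0 RPKM in labelled-positive replicates 1 to 3, against 65.0, 60.6 and 64.5 RPKM in labelled-negative replicates 1 to 3. These values overlapped, and the log2 fold change was 0.03 with a 95% confidence interval of -0.11 to 0.17 (SE 0.06, limma adjusted p = 0.676). C1s1 was at 55.3, 53.7 and 55.5 RPKM in labelled-positive libraries and at 74.0, 68.4 and 71.3 RPKM in labelled-negative ones. Every labelled-positive library was below every labelled-negative one, with means of 54.8 ± 1.02 and 71.2 ± 2.80 RPKM (SD, n = 3 each; log2 fold change -0.37, SE 0.05, limma adjusted p = 0.000574). Within a library, where scaling between libraries plays no part, C1ra was 1.10, 1.26 and 1.19 times the level of C1s1 in labelled-positive replicates 1 to 3 and 0.879, 0.887 and 0.906 times in labelled-negative replicates 1 to 3. The ratio was 1.33-fold higher in labelled-positive libraries and the groups did not overlap (exact two-sided permutation p = 0.1, the smallest that 3 against 3 can give). This ratio and the others below were chosen after values were seen, so their p-values are descriptions. By the same exact test each of the 7 complement genes called by limma also stood at p = 0.1, and C1ra at p = 0.5.

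The start regions of this neighbouring pair are shown because the genes lie side by side and C1s1 was called lower while C1ra was not called. The windows run from 250 bases before to 50 bases after the annotated start, from RefSeq on GRCm38.p6, 5′ to 3′ on the strand of the gene. The C1ra window is chr6:124512371-124512670 on the plus strand and the C1s1 window, the first of its start sites in the table, is chr6:124542310-124542609 on the minus strand. The C1ra gene as placed above begins at 124512405, so the RefSeq start used differs from it. Most of the C1ra window thus lies inside the gene as placed above. Capitals mark every match, on either strand, to the motif letters TTCNNNGAA (a site type of STAT factors), GGG, any 5 bases and CC (NF-kB) and TTNNGNAA (C/EBP), which are factors of inflammatory signalling.
C1ra: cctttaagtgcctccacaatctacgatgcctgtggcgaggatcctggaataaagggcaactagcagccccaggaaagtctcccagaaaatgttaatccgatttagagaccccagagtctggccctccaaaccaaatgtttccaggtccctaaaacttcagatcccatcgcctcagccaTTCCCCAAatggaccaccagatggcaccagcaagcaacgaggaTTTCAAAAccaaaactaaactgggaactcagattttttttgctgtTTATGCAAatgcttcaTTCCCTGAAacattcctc
C1s1: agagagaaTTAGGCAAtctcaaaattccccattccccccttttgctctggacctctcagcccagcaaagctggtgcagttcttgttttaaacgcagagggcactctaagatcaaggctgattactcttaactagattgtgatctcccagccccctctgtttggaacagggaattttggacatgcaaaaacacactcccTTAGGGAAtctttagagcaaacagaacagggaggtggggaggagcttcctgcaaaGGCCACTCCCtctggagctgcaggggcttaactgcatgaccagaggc
The C1ra window held 1 STAT-type and 3 C/EBP-type matches, and the C1s1 window held 1 NF-kB-type and 2 C/EBP-type matches. No match of a motif overlapped a match of another motif in these windows. The window of the second C1s1 start site, not printed, held 1 NF-kB-type and 1 C/EBP-type match. Of 32851 RefSeq promoter windows of 300 bases, 8.30% held the STAT letters, 50.8% the NF-kB letters and 40.7% the C/EBP letters, and 3.60% held 3 or more C/EBP-type matches, as the C1ra window did. A match is a description of the letters and not a binding site. The table held windows for 5 of the 8 genes.

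Serping1 encodes the C1 inhibitor, a serpin that traps C1r and C1s and also restrains the contact system of coagulation. On chromosome 2 (84765387 to 84775444, minus strand), it was at 214, 242 and 251.4 RPKM in labelled-positive replicates 1 to 3, against 106, 104 and 115 RPKM in labelled-negative replicates 1 to 3. All labelled-positive libraries were above all labelled-negative ones, at 236 ± 19.2 and 108 ± 5.76 RPKM (SD, n = 3 each; log2 fold change 1.12, SE 0.08, limma adjusted p = 5.68e-06). When limma tested for a change above 1.5-fold, Serping1 still passed (adjusted p = 0.000825), as did 4.43% of all genes tested in the higher direction and 9.43% in either. Serping1 RNA was at 1.84, 2.00 and 2.07 times the summed level of C1ra and C1s1 RNA in labelled-positive replicates 1 to 3. In labelled-negative replicates 1 to 3 it was at 0.760, 0.806 and 0.844 times. The Serping1 level was thus above that sum in every labelled-positive library. It was below the sum, though above either gene alone, in every labelled-negative one. The ratio differed 2.45-fold (exact permutation p = 0.1, with the ratio chosen after values were seen). These are RNA levels, and protein amounts were not measured. The position against a ratio of 1 also depends on the exon lengths used.

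C4b encodes the component C4, which C1s cuts and which attaches to surfaces beside C3. It lies in the major histocompatibility complex on chromosome 17 (34728380 to 34743882, minus strand). C4b was at 16.0, 16.4 and 17.5 RPKM in labelled-positive libraries and at 29.2, 30.0 and 28.5 RPKM in labelled-negative ones. The groups were well apart, with means of 16.7 ± 0.806 and 29.2 ± 0.716 RPKM (SD, n = 3 each; log2 fold change -0.78, SE 0.05, limma adjusted p = 6.79e-06). The fall also passed the test against a 1.5-fold change (limma adjusted p = 0.0393), as did 5.00% of all genes tested in the lower direction.

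C3 is the hub of the cascade, whose cleavage gives the tag C3b and the signalling fragment C3a. It also lies on chromosome 17, apart from the histocompatibility complex (57203970 to 57228136, minus strand). It was at 9.97, 9.49 and 11.0 RPKM in labelled-positive replicates 1 to 3, against 7.19, 6.55 and 5.63 RPKM in labelled-negative replicates 1 to 3. The lowest labelled-positive library was above the highest labelled-negative one (10.2 ± 0.798 and 6.46 ± 0.786 RPKM, SD, n = 3 each; log2 fold change 0.59, SE 0.09, limma adjusted p = 0.000778). The rise did not pass the test against a 1.5-fold change (limma adjusted p = 1). C3 and C4b thus moved in opposite directions. C3 was at 0.624, 0.577 and 0.630 times the level of C4b in labelled-positive libraries. In labelled-negative ones it was at 0.246, 0.219 and 0.197 times, so the ratio was 2.77-fold higher in labelled-positive libraries. As each gene alone separated the groups, the ratio had to do so too, and its exact permutation p of 0.1 adds no support. C4b remained the more abundant of the pair in every library.

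Cfb encodes factor B, the protease of the alternative route. It is close to C4b on chromosome 17 (34856374 to 34862518, minus strand) and was the lowest of the 8 genes. It was at 0.689, 0.768 and 0.704 RPKM in labelled-positive libraries, from 32, 36 and 33 reads, and at 1.29, 1.29 and 1.33 RPKM in labelled-negative ones, from 68, 68 and 70 reads. The groups did not overlap (log2 fold change -0.42, SE 0.06, limma adjusted p = 0.000479). Without the low-value filter the adjusted p was 0.000535 in limma, and on the worked-out reads with limma voom the log2 fold change was -0.85 (adjusted p = 0.000921). The next gene on the same strand, C2, which encodes the matching protease of the classical route, was at 0.894 ± 0.156 RPKM in labelled-positive and 1.38 ± 0.0163 RPKM in labelled-negative libraries (SD, n = 3 each; log2 fold change -0.33, SE 0.08, limma adjusted p = 0.00644). C4b, Cfb and C2 were thus each lower in labelled-positive libraries, but Cfb and C2 were near the filter of 1 RPKM. Neither Cfb nor C2 passed the test against a 1.5-fold change. C4a, which lies between C4b and Cfb, was too low to be tested.

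The start region of C3 is shown because inflammatory control of this gene is well known. The window is chr17:57228087-57228386 on the minus strand, with capitals as above.
C3: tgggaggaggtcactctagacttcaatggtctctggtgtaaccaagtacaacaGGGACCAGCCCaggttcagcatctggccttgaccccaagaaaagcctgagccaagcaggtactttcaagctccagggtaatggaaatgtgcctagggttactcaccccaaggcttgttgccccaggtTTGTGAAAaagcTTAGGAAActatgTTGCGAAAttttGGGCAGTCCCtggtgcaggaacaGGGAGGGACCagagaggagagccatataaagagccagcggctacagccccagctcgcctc
It held 4 NF-kB-type matches, of which a pair overlap each other, and 3 C/EBP-type matches that lie between 70 and 38 bases before the start. Of all 32851 windows, 3.60% held 3 or more C/EBP-type matches and 13.6% held 3 or more NF-kB-type matches. No STAT-type match was in this window.

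Cd55 encodes decay accelerating factor, a lipid-anchored surface protein that takes apart the enzymes that cut C3. On chromosome 1 (130439027 to 130462744, minus strand), it was at 4.84, 4.30 and 3.99 RPKM in labelled-positive replicates 1 to 3 (386, 346 and 321 reads), against 21.2, 20.3 and 21.6 RPKM in labelled-negative replicates 1 to 3 (1913, 1838 and 1956 reads). Every labelled-positive library was far below every labelled-negative one, at 4.37 ± 0.430 and 21.1 ± 0.658 RPKM (SD, n = 3 each; log2 fold change -2.04, SE 0.07, limma adjusted p = 1.01e-07). The fall passed the test against a 1.5-fold change (limma adjusted p = 7.87e-07). In size it was larger than the change of 98.4% of the genes tested.

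Cd59a encodes the lipid-anchored surface protein that blocks assembly of the membrane pore. On chromosome 2 (104095801 to 104115354, plus strand), it was at 28.7, 33.5 and 34.7 RPKM in labelled-positive replicates 1 to 3, against 16.8, 15.1 and 20.8 RPKM in labelled-negative replicates 1 to 3. The groups did not overlap, at 32.3 ± 3.14 and 17.6 ± 2.95 RPKM (SD, n = 3 each; log2 fold change 0.85, SE 0.12, limma adjusted p = 0.000424). The rise did not pass the test against a 1.5-fold change (limma adjusted p = 0.227). The 2 surface regulators moved apart: Cd59a was at 5.94, 7.79 and 8.70 times the level of Cd55 in labelled-positive replicates 1 to 3 and at 0.793, 0.741 and 0.962 times in labelled-negative ones. The ratio was 8.93-fold higher in labelled-positive libraries, and the lowest labelled-positive value was in replicate 1, the library that stood apart. As Cd59a and Cd55 each separated the groups in opposite directions, the ratio had to do so too, and its exact permutation p of 0.1 adds no support.

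The Cd55 start region is shown as that of the gene with the largest change. The window is chr1:130462695-130462994 on the minus strand, with capitals as above.
Cd55: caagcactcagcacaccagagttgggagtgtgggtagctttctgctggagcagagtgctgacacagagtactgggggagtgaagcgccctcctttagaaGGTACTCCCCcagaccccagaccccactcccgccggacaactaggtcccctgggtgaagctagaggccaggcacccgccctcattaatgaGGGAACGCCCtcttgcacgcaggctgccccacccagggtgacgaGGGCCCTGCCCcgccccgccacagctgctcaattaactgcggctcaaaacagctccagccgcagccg
It held 4 NF-kB-type matches, of which a pair overlap each other, and neither STAT-type nor C/EBP-type letters. Of all 32851 windows, 13.6% held 3 or more NF-kB-type matches.

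**Figure D2:**
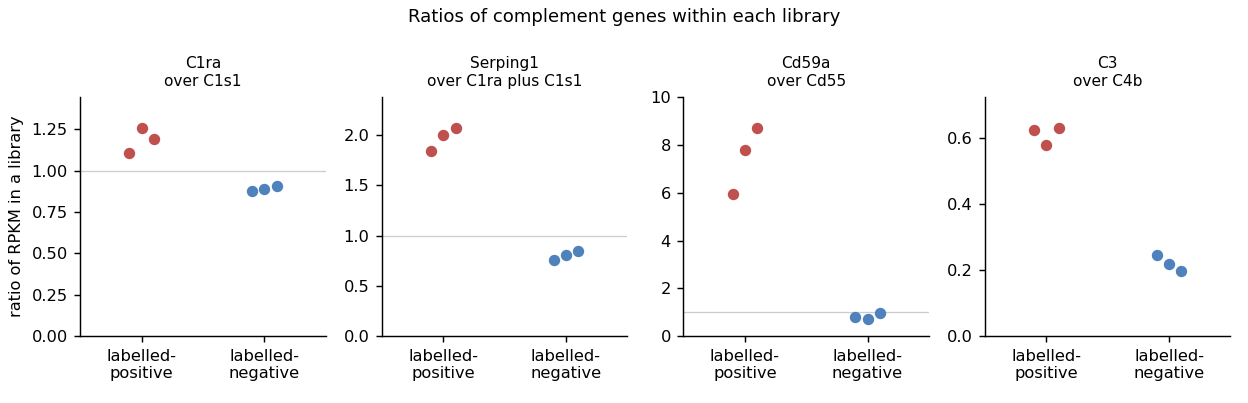
Ratio of RPKM between complement genes in each library (vertical axes start at 0), with the 3 labelled-positive libraries left and the 3 labelled-negative libraries right in each panel and a grey line at a ratio of 1. Cd59a over Cd55 was 5.94 to 8.70 in labelled-positive and 0.741 to 0.962 in labelled-negative libraries, and the groups are apart in all 4 panels. The ratios were chosen after values were seen.

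Several of these genes have near-identical copies in the mouse genome, and the handling of reads that match more than 1 gene is not stated in those sources. Of all distinct 50-base stretches in the annotated C1ra transcripts, 48.0% also occur in C1rb, and 21.9% of those of C1s1 occur in C1s2. C4b shares 34.6% of its stretches with C4a, Cd55 shares 8.0% with Cd55b and Cd59a shares 3.87% with Cd59b, while C3 and Serping1 share none with any other gene. Of the exon bases of Cfb, 79.5% also belong to the predicted gene Gm20547 on the same strand, and 18.4% of those of C1s1 lie opposite exons of the antisense gene Gm16567. The levels, fold changes and calls of C1ra, C1s1, C4b and Cfb are therefore uncertain, and the shared percentages set no bound on the error. The order of these genes by level and the ratios that use them are uncertain too, among them that of Serping1 to the sum of C1ra and C1s1. C1rb, C1s2, Cd55b, Gm20547 and Gm16567 were not analysed here. C4a was at 0.0487 RPKM on average in labelled-positive and 0.156 RPKM in labelled-negative libraries, far below C4b, and 43 of its 54 labelled-negative reads came from replicate 1. Cd59b, the neighbour of Cd59a, was at 2.76, 3.11 and 3.71 RPKM in labelled-positive libraries and at 1.32, 1.36 and 1.78 RPKM in labelled-negative ones, with no overlap (limma log2 fold change 0.75, SE 0.10, adjusted p = 0.000468). With the reads of both copies summed, limma voom gave log2 fold changes of -0.82 for C4b with C4a and 0.90 for Cd59a with Cd59b.

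The rest of the complement pathway was described from 6 lists with 54 genes, of which 30 had a row in the table and 20 were tested. By limma, 6 of the 20 were higher, 10 were lower and 4 did not pass, beside the shares of 29.7% and 26.1% for all genes. Of the 20, 7 reached the filter in labelled-negative libraries only, which favours lower values for them, so these counts are a description too.

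Among initiating and amplifying components, 2 of 6 tested genes rose and 4 fell. Masp1, a protease of the lectin route and a relative of C1r and C1s, was 2.03-fold higher, at 23.7 ± 0.988 RPKM in labelled-positive and 11.7 ± 0.112 RPKM in labelled-negative libraries (log2 fold change 0.96, SE 0.05, limma adjusted p = 1.34e-06). C1rl, the C1r-like gene that precedes C1ra on chromosome 6, was at 10.8, 11.97 and 12.99 RPKM in labelled-positive libraries and at 6.94, 7.96 and 7.12 RPKM in labelled-negative ones, with no overlap (limma log2 fold change 0.63, SE 0.08, adjusted p = 0.000239). The C1r family genes and C1s1 at this locus thus differed among themselves: C1rl rose, C1ra was not called and C1s1 fell. Colec12, a surface collectin, was 2.06-fold lower, at 32.4 ± 2.25 RPKM in labelled-positive and 66.8 ± 2.44 RPKM in labelled-negative libraries. The alternative route genes Cfd, which encodes the protease that activates factor B and is named adipsin for its expression in fat cells, and Cfp, which encodes the stabilising protein properdin of leukocytes, were 6.86-fold and 5.41-fold lower. They were at 1.115 ± 0.234 and 0.662 ± 0.122 RPKM in labelled-positive and at 7.65 ± 1.19 and 3.58 ± 0.698 RPKM in labelled-negative libraries. C2, given above with Cfb, was the fourth gene that fell.

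Among other regulators, 1 of 3 tested genes rose. Clu, which encodes clusterin, a secreted chaperone that binds the forming membrane pore, was at 414, 483 and 464 RPKM in labelled-positive libraries, against 80.8, 78.1 and 83.1 RPKM in labelled-negative ones. No library overlapped, and the rise was 5.63-fold (log2 fold change 2.48, SE 0.07, limma adjusted p = 4.47e-08). The membrane regulator Cr1l (also called Crry), which in mice limits C3 on most cells, was at 4.99 ± 0.282 RPKM in labelled-positive and 4.68 ± 0.222 RPKM in labelled-negative libraries and was not called (log2 fold change 0.08, SE 0.06, limma adjusted p = 0.322). Of the 7 terminal components, C8g alone had a row, and it was not called (1.85 ± 0.223 RPKM in labelled-positive and 1.77 ± 0.293 RPKM in labelled-negative libraries; limma adjusted p = 0.743).

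Receptors and binding proteins had 6 genes in the test: Calr and C1qbp rose, C3ar1, C5ar1 and Itgb2 fell, and Cd93 was not called. The receptor of C3a, C3ar1, had 3 reads over the labelled-positive group and was at 6.73 ± 0.688 RPKM in labelled-negative ones, a ratio of 479 (95% exact interval 164 to 2326 from counting error). C5ar1, the receptor of C5a, had 0 reads in the labelled-positive libraries and was at 3.53 ± 0.690 RPKM in labelled-negative ones, at least 150-fold lower against a limit of 3 reads over the group. Itgb2, the shared chain of the leukocyte complement receptors, was 28.3-fold lower. Calr and C1qbp, abundant cell proteins that can bind C1q, were 1.39-fold and 1.16-fold higher (limma adjusted p = 0.000197 and 0.0130), and Cd93 was not called (limma adjusted p = 0.418). The C1q subunit genes C1qa, C1qb and C1qc, which macrophages make, had 3, 2 and 2 reads over the labelled-positive group, against means of 24.0, 29.1 and 18.02 RPKM in labelled-negative libraries, and all 3 were called lower.

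**Figure D3:**
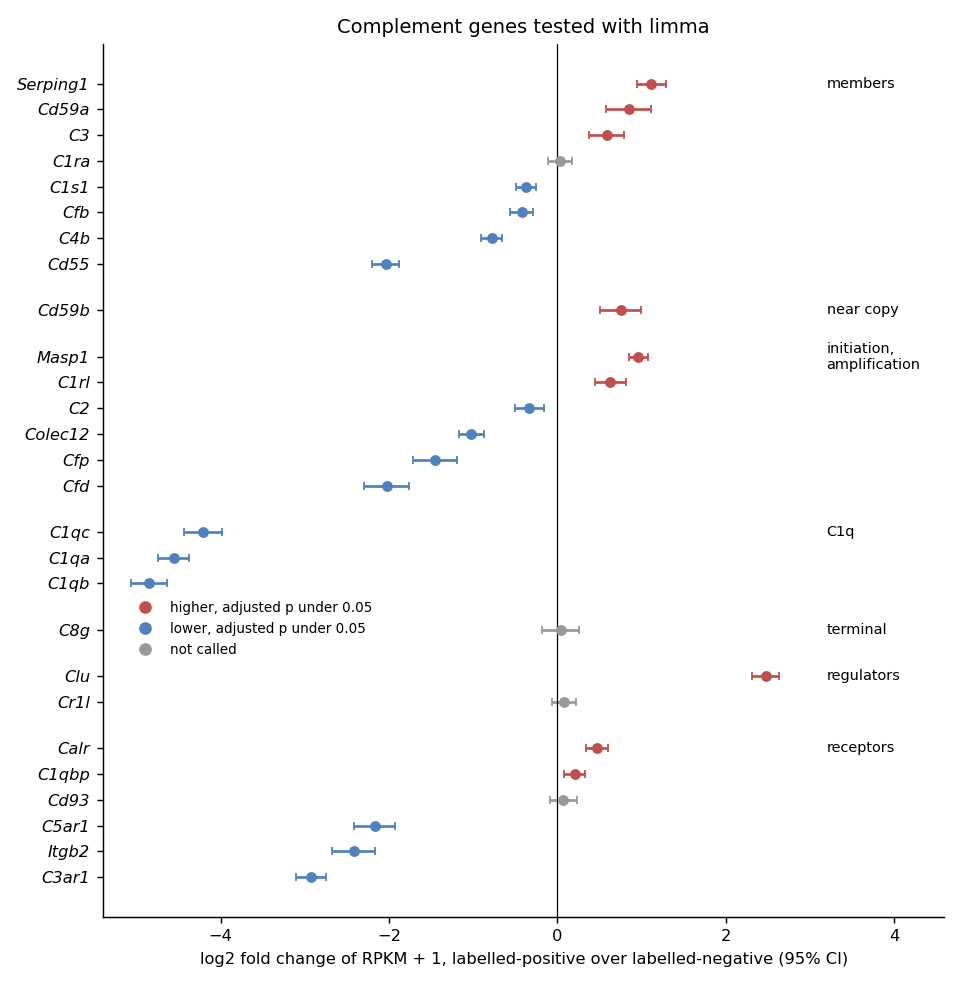
Log2 fold change of RPKM + 1, labelled-positive over labelled-negative, with 95% confidence intervals, for the 8 complement genes (top) and other complement genes tested; red is higher, blue lower and grey not called at a limma adjusted p under 0.05. The 8 genes lie between -2.04 for Cd55 and 1.12 for Serping1, while the C1q subunits lie between -4.85 and -4.21 and Clu at 2.48.

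Genes that mark other cell types also differed. All 8 tested macrophage markers of 10 listed fell, and the list summed to 27.98 to 35.5 RPKM in labelled-positive and 511 to 619 RPKM in labelled-negative libraries. Of these 8, 5 reached the filter in labelled-negative libraries only, which favours a lower call. Tyrobp had 0 reads in the labelled-positive libraries, Ctss was at 0.0740 and 35.9 RPKM, and Lyz2 at 27.4 and 429.8 RPKM, each with the labelled-positive mean first. Adipocyte markers summed to 40.2 to 43.6 RPKM in labelled-positive and 121.8 to 131 RPKM in labelled-negative libraries, with 4 of 5 tested genes lower, among them Lpl and Adipoq, and Pparg, named after its value was seen, higher. Endothelial markers summed to 16.8 to 18.4 and 3.97 to 4.79 RPKM in labelled-positive and labelled-negative libraries, with 5 of 6 tested genes higher, among them Emcn and Cdh5. Of the 5, Cdh5 and also Tie1 had 0 reads in labelled-negative libraries. Tek, named after its value was seen, was 7.10-fold lower, at 0.496 and 3.52 RPKM in the same order of groups. The 5 higher genes reached the filter in labelled-positive libraries only, which favours a higher call, and Tek in labelled-negative libraries only. Schwann cell markers summed to 40.8 to 47.1 and 15.9 to 16.6 RPKM, with 5 of 6 tested genes higher, among them Sox10, and S100b lower. Here too the 5 higher genes reached the filter in labelled-positive libraries only. Macrophages are known to make C3, Cfb, Cfp and the C1q subunits, adipocytes make Cfd, and endothelial cells carry Cd55 and Cd59a. The part of these cell types in the complement results was not tested.

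Genes of acute phase and inflammatory signalling, a list of 18, were tested for 15 members, of which 6 rose, 4 fell and 5 did not pass, where 29.7% of all genes tested rose and 26.1% fell. The receptor genes Tnfrsf1a and Il6st rose, by 1.14-fold to 116 ± 3.31 RPKM and by 1.23-fold to 96.1 ± 4.94 RPKM in labelled-positive libraries, while Osmr and Il1r1 were not called (limma adjusted p = 0.720 and 0.0838). The transcription factor gene Stat3 was at 31.0 ± 0.409 RPKM in labelled-positive and 31.5 ± 0.193 RPKM in labelled-negative libraries and was not called (limma adjusted p = 0.666). Cebpb, a factor of the C/EBP family, was 1.57-fold higher, at 30.5 ± 2.77 RPKM in labelled-positive and 19.4 ± 2.03 RPKM in labelled-negative libraries (limma adjusted p = 0.000557). Chosen after their values were seen, Irf1, an interferon response factor, was 1.94-fold lower (4.07 ± 0.259 and 7.90 ± 0.151 RPKM in labelled-positive and labelled-negative libraries), and Lcn2, an acute phase gene, was 2.16-fold lower.

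The genes whose levels over the 6 libraries were most like each complement gene were sought among 7025 genes with a mean of at least 5 RPKM. Such a correlation mostly reads the difference between the groups, since the 6 points fall into 2 groups. For Cd55 the closest were Net1, Ccn3 and Grem1 (Pearson's r of 0.999 or more on log2(RPKM + 1)), and 247 genes reached an r of 0.99. For Serping1 they were Actr1b, Slc2a1 and Tubb6, with 401 genes at that mark, and for C4b Ctdspl and Tef, with 181. Fewer genes followed C3, for which Txlna, Rrn3 and Tmem129 were closest and 4 genes reached that mark, and C1s1, with 2010111I01Rik, Gorab and Bace1 closest and 19 genes there. For Cd59a the closest were Psmg2, Babam2 and Krtcap2, for Cfb Sorbs3, Lipa and Osr2, and for C1ra, where 0 genes reached the mark, Gm14539, Ercc3 and Cdca4.

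The direction of C1ra depended on scaling, and the other 7 genes kept their direction and call in all 99 alternatives tried for them other than the test against a 1.5-fold change. With libraries scaled by total reads only, which moved the log2 fold changes of all genes by a median of -0.17, C1ra stood at -0.17 (limma adjusted p = 0.0455), and the fold changes of the others ranged as plotted.

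**Figure D4:**
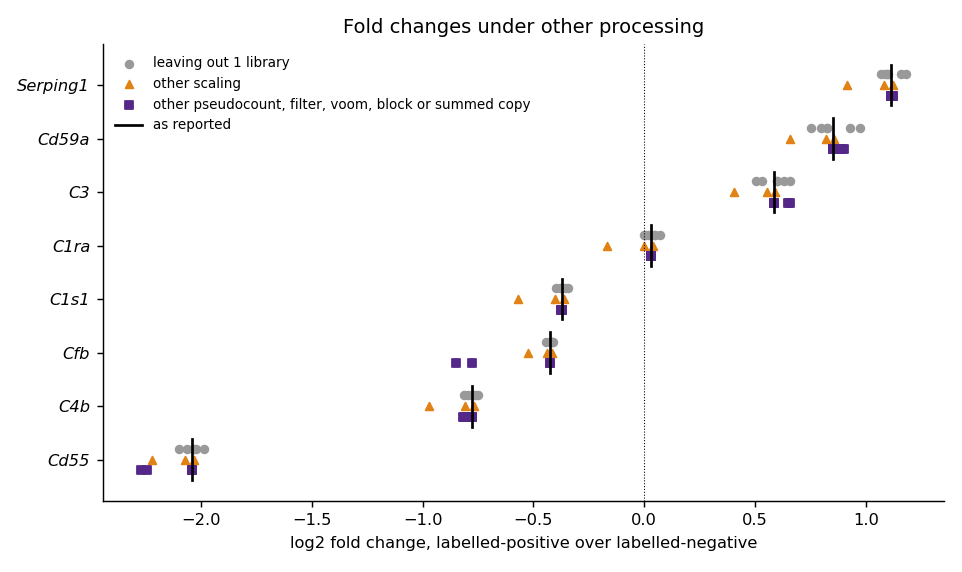
Log2 fold change of each of the 8 genes, labelled-positive over labelled-negative, as reported (black line) and under other processing: leaving out 1 library (grey circles), other scaling (orange triangles), and another pseudocount, filter, voom, the replicate block or reads summed with a copy (purple squares). C1ra lies around 0, from -0.17 to 0.07, and no other gene crosses 0.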

How the data were processed

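The deposited table held RPKM values made by the authors for 15711 genes in 6 libraries; since its header gives no unit, RPKM was inferred as described here. The submitters' processing notes name the build mm10, bcl2fastq 1.8.4 and Cell Ranger, without saying what each did. The aligner, the counter and any use of strand: not given in the sources used here. Per the labels' protocols, libraries were made from 1 μg of RNA with a SMARTER mRNA kit. RPKM multiplied by merged exon length from GENCODE M21 (GRCm38) gave whole reads (tolerance 0.01) in all 6 libraries for 15690 of 15691 genes with a length, Vldlr being the exception; 20 names had been turned into dates. A worked-out read may stand for a pair. The deposited scale was not that of total reads: the library size it implies was 0.931 to 0.938 times the worked-out total in labelled-positive and 1.07 to 1.08 times in labelled-negative libraries.

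The test covered genes that reached 1 RPKM in 3 or more libraries. It was run on log2(RPKM + 1) with limma 3.58.1 in R 4.3.3 (trend, robust), with group as the only term. Benjamini-Hochberg adjustment was over all 12116 genes tested, with a threshold of 0.05. The procedure was also run on simulated reads, with the same dispersion for all genes and libraries and changes in well-counted genes only. That run does not cover a library that stands apart or genes as low as Cfb. Single values were compared by exact two-sided permutation tests (scipy 1.17.1). The 8 genes, the gene lists, the motifs and the tests were chosen with earlier results of these data known, and the ratios after values were seen. Named were all 8 genes, their copies, every tested gene of the other complement lists, the 6 tested acute phase genes and 2 tested markers per cell type list of the highest mean, and Vldlr; a few others are marked or follow from counts. Some genes that this rule names are not reported here. Alternatives were other scalings, pseudocounts, filters, limma voom, a replicate block, summed copies, a test against a 1.5-fold change and leaving out each library. Intervals and limits on counts cover counting error only.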

Additional observations from a re-analysis of the deposited data

How the results depend on the processing

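The calls of C3, C4b, C1s1, Cfb, Serping1, Cd55 and Cd59a held under every scaling, pseudocount, filter and library left out, with adjusted p of at most 0.00511; the filter at 5 RPKM removed Cfb from the test. Leaving out 1 library kept 3 of the 8 genes higher and 4 lower each time. Against a 1.5-fold change, 1 of the 8 was higher and 2 were lower, 2 other complement genes were higher and 9 lower, and 537 of all genes were higher and 606 lower. C1ra turned to -0.0018 with upper-quartile scaling and to -0.17 with total-read scaling; total-read scaling moved all genes by a median of -0.17 and gave 1877 genes higher and 5548 lower, against 3602 and 3167 as reported, and 5 of the 8 genes lower. A filter at 5 RPKM, which tests fewer genes, gave 1800 genes lower and 6 other complement genes lower, against 10 as reported; with no filter 15 of 30 were lower. Whether the replicate numbers pair the samples could not be settled with 3 libraries per group. Deviations of same-numbered libraries correlated at 0.303, -0.061 and 0.307, and those of differently numbered libraries at -0.387 to 0.265. With the replicate block, 3 of the 8 genes were higher and 4 lower, and 6 other complement genes were higher and 10 lower. Of all genes, 3738 were then called higher and 3315 lower. Depth limits Cfb most, with 101 reads over the labelled-positive libraries and 206 over the labelled-negative ones.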

Other observations

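Complement genes under the filter of 1 RPKM were not tested and are given by their levels. Csmd1, which encodes a large membrane protein with complement control domains, was at 0.642, 0.602 and 0.488 RPKM in labelled-positive libraries (545 reads in all) and at 0.116, 0.104 and 0.110 RPKM in labelled-negative ones (117 reads), and its relative Csmd3 was at 0.0179 and 0.115 RPKM on average in the same order of groups. Among leukocyte genes, Fcna (ficolin A) had 3 reads in the labelled-positive and 81 in the labelled-negative libraries, Itgam had 2 and 136, and Itgax 0 and 27. Cd46 was at 0.135 and 0.308 RPKM, C4bp at 0.527 and 0.742 RPKM, Susd4 at 0.366 and 0.343 RPKM and Colec10 at 0.163 and 0.0976 RPKM, with the labelled-positive mean first.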
